A study of Homo sapiens with 4 samples.

Results

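The library labelled ΔTM was set against the Luc library over every gene that reached an FPKM of 1 in either of them, where FPKM is a level scaled for transcript length and for the number of fragments in the library. Of the 23362 genes in the deposited table, 11580 met this rule. MKN28 is a human gastric cancer cell line, and poly(A) RNA was sequenced from 4 of its derivatives, as 1 library each. All 4 derivatives carry a tet-on retroviral construct, which a cell expresses when doxycycline is given. The construct holds luciferase in the control cells (Luc), intact KIAA1324 in WT, KIAA1324 with mutated N-glycosylation sites in 3NQ, and KIAA1324 without its transmembrane domain in ΔTM. Whether the cells sampled for RNA had received doxycycline, and whether a line is a clone or a pool, is stated in neither the labels nor the methods. With 1 library a side, no difference had a replicate check and no test was made.

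KIAA1324 encodes a transmembrane glycoprotein that passes through the endoplasmic reticulum. The endoplasmic reticulum is where secreted and membrane proteins are folded, by chaperones such as HSPA5 (BiP) and by disulfide isomerases. When unfolded proteins collect there, the sensors ERN1 (IRE1), ATF6 and EIF2AK3 (PERK) start the unfolded protein response, and XBP1 and ATF6 then raise transcription of chaperone genes through promoter sequences named endoplasmic reticulum stress elements.

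KIAA1324 itself did not follow the label. KIAA1324 (ENSG00000116299, chromosome 1 of GRCh37 from 109656301 to 109749401, plus strand) was measured at 2.86 FPKM in Luc, 11185 in WT and 8197 in 3NQ, but was listed at 0 in the library labelled ΔTM. It was the only gene listed at 0 in that library with an FPKM of at least 500 in another, whereas Luc, WT and 3NQ each had 2 such genes. Its nearest measured neighbours on each side were at like levels in the 4 libraries. TMEM167B, upstream, was at 45.7 in Luc, 48.6 in WT and 48.2 in 3NQ, against 42.9 in the library labelled ΔTM. SARS, the seryl-tRNA synthetase gene downstream, was at 257, 308, 328 and 268 in the same order. C1orf194, which overlaps the start of KIAA1324 on the other strand, was listed at 0 in all 4. KIAA1324L, the closest relative of KIAA1324, was at 10.6 in Luc and 12.2 in the library labelled ΔTM, a log2 ratio of 0.18. A listed 0 can be a failed estimate, so no fold is given for KIAA1324, and the library is called by its label throughout.

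Of the 38 gene lists measured, the chaperones of the endoplasmic reticulum had the highest median ratio, and the promoter sequences of 6 of its genes are shown because they carry the elements named above. The promoters are RefSeq's on GRCh38.p14, from 250 bases before the transcription start, written 5′ to 3′ on the gene's strand. Capitals mark the fixed letters of an element, which may lie on either strand. ERSE is CCAAT followed by any 9 bases and CCACG, and ERSE-II is ATTGG followed by any 1 base and CCACG. On the other strand both begin with CGTGG.

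HSPA5 (chr9:125241344-125241593, minus strand): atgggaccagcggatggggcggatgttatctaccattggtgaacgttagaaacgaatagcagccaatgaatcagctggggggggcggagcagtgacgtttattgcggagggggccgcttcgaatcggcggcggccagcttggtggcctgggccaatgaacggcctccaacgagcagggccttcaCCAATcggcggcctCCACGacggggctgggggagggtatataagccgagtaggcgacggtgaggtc
HSP90B1 (chr12:103930160-103930409, plus strand): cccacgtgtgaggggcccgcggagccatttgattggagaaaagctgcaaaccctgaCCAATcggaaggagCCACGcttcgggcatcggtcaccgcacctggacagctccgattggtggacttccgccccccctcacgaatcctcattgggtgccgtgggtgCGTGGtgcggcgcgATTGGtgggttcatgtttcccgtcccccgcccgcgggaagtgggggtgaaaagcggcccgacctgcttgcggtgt
CRELD2 (chr22:49918384-49918633, plus strand): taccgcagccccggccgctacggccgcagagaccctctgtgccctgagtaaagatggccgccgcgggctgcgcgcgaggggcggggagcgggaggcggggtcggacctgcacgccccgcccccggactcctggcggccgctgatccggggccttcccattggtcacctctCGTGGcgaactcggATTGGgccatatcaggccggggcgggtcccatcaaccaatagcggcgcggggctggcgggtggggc
SDF2L1 (chr22:21642052-21642301, plus strand): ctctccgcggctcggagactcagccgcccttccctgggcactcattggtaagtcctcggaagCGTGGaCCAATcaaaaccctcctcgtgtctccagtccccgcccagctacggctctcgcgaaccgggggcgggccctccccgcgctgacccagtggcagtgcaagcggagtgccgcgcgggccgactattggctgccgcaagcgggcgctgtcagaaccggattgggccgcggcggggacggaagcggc
HERPUD1 (chr16:56931892-56932141, plus strand): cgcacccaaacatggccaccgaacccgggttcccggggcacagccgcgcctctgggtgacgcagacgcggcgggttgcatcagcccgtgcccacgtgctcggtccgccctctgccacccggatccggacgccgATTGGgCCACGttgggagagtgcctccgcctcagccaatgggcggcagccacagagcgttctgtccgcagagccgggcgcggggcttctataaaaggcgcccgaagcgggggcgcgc
HYOU1 (chr11:119057206-119057455, minus strand): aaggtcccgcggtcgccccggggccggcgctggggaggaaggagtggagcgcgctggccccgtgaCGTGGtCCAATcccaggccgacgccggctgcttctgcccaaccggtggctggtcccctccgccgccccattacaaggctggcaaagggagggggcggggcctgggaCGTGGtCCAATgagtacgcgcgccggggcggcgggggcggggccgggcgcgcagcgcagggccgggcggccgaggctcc

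HSPA5 held 1 ERSE, beginning 66 bases before the start, and HSP90B1 held 2, beginning 194 and 89 bases before it. HYOU1 held 2 copies of ERSE-II on its other strand, while SDF2L1 and HERPUD1 held 1 each.

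Relative to Luc, 176 of the 11580 genes were higher in the library labelled ΔTM by at least 1.5-fold (1.52%) and 183 were lower (1.58%), together 3.10%. Ratios were taken as log2 of FPKM + 1, which understates the change of low genes. The median log2 ratio was −0.061, the middle 90% of genes lay from −0.39 to 0.32, and 7319 genes were below Luc against 4261 above. Genes past 1.5-fold made up 6.14% of those whose larger FPKM was from 1 to 5, 1.87% from 5 to 50 and 3.54% from 50 upwards. In the abundant class, 60 were higher and 25 lower, whereas in the lowest class 60 were higher and 87 lower. The split of higher against lower moved with the scaling, since higher genes were 49.0% of the calls as deposited and 60.3% after scaling by the median of ratios. In total, 174 genes passed the filter through the library labelled ΔTM alone, 43 of them called higher, and 227 through Luc alone, 62 of them called lower.

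The spread between other pairs of libraries puts these shares in place. Genes past 1.5-fold were 6.73% between WT and Luc, 4.35% between 3NQ and Luc, 7.25% between the library labelled ΔTM and WT, and 3.40% between the library labelled ΔTM and 3NQ. These pairs share libraries, and the pair of the library labelled ΔTM with Luc had the lowest share of the 6. Low FPKM steps put the depth of the library labelled ΔTM at 1.02 times that of Luc, WT at 0.956 and 3NQ at 1.12, while absolute depth is unknown. Median ratios by chromosome lay between −0.10 on chromosomes 14 and 18 and 0.016 on chromosome 21, and genes past 1.5-fold were between 1.17% (chromosome 10) and 5.16% (chromosome 18). EPCAM, CDH1, KRT8, KRT18, KRT19, CLDN4 and CLDN7, markers of epithelium, were at an FPKM of at least 173 in all 4 libraries. VIL1, TFF1 and CDH17, markers of gastric or intestinal epithelium, were listed at 0 in all 4, and MUC13 was below 0.2. MUC1, of the same marker set, was measured, at 12.7 in Luc, 8.69 in WT and 12.7 in 3NQ, against 14.0 in the library labelled ΔTM. Of the markers of fibroblasts and smooth muscle, leukocytes and endothelium, 1 gene in each list passed the filter, none past 1.5-fold.

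**Figure D1:**
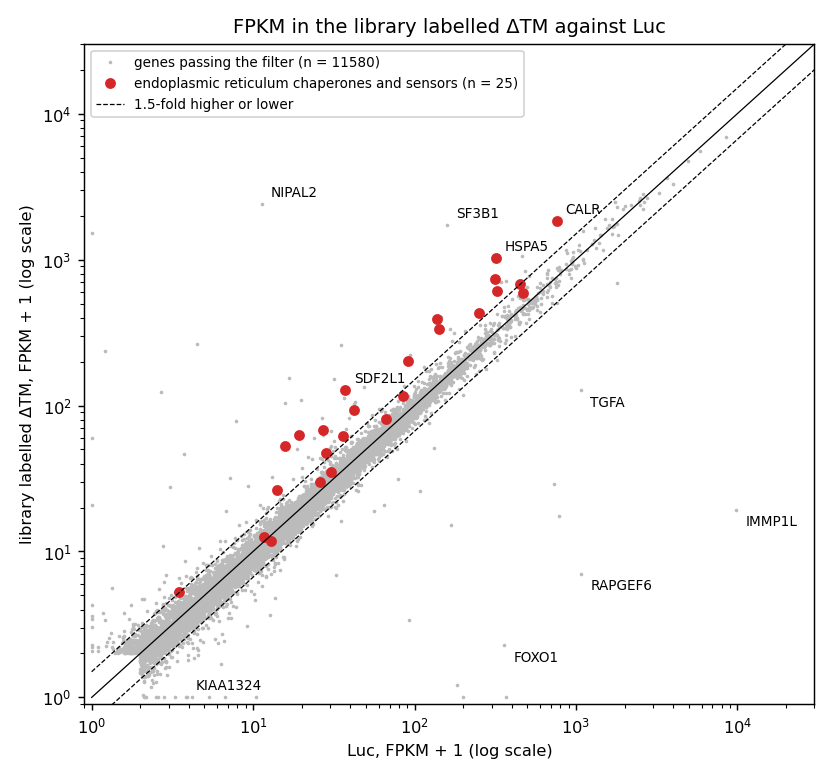
FPKM + 1 of each gene in Luc (x axis, log scale) against the library labelled ΔTM (y axis, log scale). Grey points are the 11580 genes passing the filter, red points the 25 endoplasmic reticulum chaperones and sensors, the solid line equality and the dashed lines 1.5-fold. A reader should see 18 red points above the upper dashed line and none under the lower one, and single genes such as NIPAL2 and IMMP1L far from the line.

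Most endoplasmic reticulum chaperones of the list were higher in the library labelled ΔTM, while of the sensors and regulators XBP1, ATF6, EIF2AK3 and PPP1R15A did not pass the threshold. Of 25 genes of this list, 18 were higher than in Luc by at least 1.5-fold and 0 were lower, against 1.52% and 1.58% of all genes tested. The median log2 ratio of the list was 0.91 and that of all genes −0.061, with 24 of the 25 above Luc. Summed over the list, levels came to 3685 FPKM in Luc, 4094 in WT and 6724 in 3NQ, against 7638 in the library labelled ΔTM. At 2-fold, 11 of the 25 remained past the threshold. A sum over genes does not tell apart more RNA per cell from more cells with this RNA.

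HSPA5, the main Hsp70 chaperone of the endoplasmic reticulum, was at 318 in Luc, 521 in WT and 1114 in 3NQ, against 1028 in the library labelled ΔTM. That is a log2 ratio of 1.69. HSPA5 was thus highest in 3NQ, next in the library labelled ΔTM, and lowest in Luc. HYOU1, an exchange factor and holdase that works with HSPA5, was at 138, 165, 358 and 393 in the order Luc, WT, 3NQ and library labelled ΔTM, a log2 ratio of 1.51. HSP90B1 (GRP94), the Hsp90 of this compartment, was at 315, 275, 570 and 737, a log2 ratio of 1.22. Both were highest in the library labelled ΔTM, and HSP90B1 was lowest in WT.

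The 3 largest ratios of the list belonged to smaller folding factors. SDF2L1, a cochaperone in the HSPA5 complex, was at 36.1 in Luc, 43.6 in WT and 92.0 in 3NQ, against 127 in the library labelled ΔTM, a log2 ratio of 1.78. CRELD2, a disulfide isomerase-like protein, was at 14.8, 14.8, 35.4 and 51.5, a log2 ratio of 1.73. MANF, a secreted protein that binds HSPA5, was at 18.1, 27.2, 45.7 and 61.5, a log2 ratio of 1.71. All 3 were highest in the library labelled ΔTM, and for CRELD2 the WT library stood at the level of Luc. The J-domain cochaperone DNAJC3 (p58IPK) was at 25.9, 40.6, 76.0 and 66.8, a log2 ratio of 1.33. DNAJB11 was at 90.6, 104, 179 and 201, a log2 ratio of 1.14. DNAJB9 (ERdj4) was at 13.0, 29.8, 39.2 and 25.5, a log2 ratio of 0.92. DNAJB9 was lower in the library labelled ΔTM than in WT or 3NQ, and lowest in Luc.

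Of the lectin chaperones and disulfide isomerases of this list, CALR, CANX, PDIA3, PDIA4 and PDIA6 passed the threshold and P4HB did not. CALR (calreticulin), which binds monoglucosylated glycans on folding proteins, was at 757 in Luc, 693 in WT and 1107 in 3NQ, against 1830 in the library labelled ΔTM. CALR had a log2 ratio of 1.27, the WT library was under Luc and the library labelled ΔTM was above the other 3. CANX (calnexin), its membrane-bound counterpart, was at 249, 280, 392 and 431, a log2 ratio of 0.79. PDIA4 was at 140, 131, 271 and 332, a log2 ratio of 1.24. PDIA6 was at 323, 309, 512 and 607, a log2 ratio of 0.91. PDIA3 (ERp57), the partner of calreticulin and calnexin, was at 447, 436, 746 and 679, a log2 ratio of 0.60 that lies just past the threshold. P4HB, the classical disulfide isomerase, was at 466, 519, 676 and 586 with a log2 ratio of 0.33, under the threshold.

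The genes of degradation from the endoplasmic reticulum in this list were HERPUD1, SYVN1, SEL1L and EDEM1. HERPUD1 was at 41.2 in Luc, 90.9 in WT and 112 in 3NQ, against 91.8 in the library labelled ΔTM, a log2 ratio of 1.14. The log2 ratio was 0.78 for SYVN1 (HRD1), the ubiquitin ligase of this pathway, and 0.73 for its partner SEL1L, whereas EDEM1 was at 0.21. For HERPUD1 and SYVN1, WT lay within 1.5-fold of the library labelled ΔTM, at 0.01 and 0.17 on the log2 scale against WT. The same held for SEL1L, at 37.4 in WT and 46.1 in the library labelled ΔTM, and for EDEM1, at 37.1 and 34.3.

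Of the 3 sensors, ERN1 was at 2.46 in Luc, 6.68 in WT and 3.90 in 3NQ, against 4.27 in the library labelled ΔTM, a log2 ratio of 0.61. EIF2AK3 had a log2 ratio of 0.09 and ATF6 one of −0.15, and neither passed the threshold. ERN1 was highest in WT, and its ratio to WT was −0.54. XBP1, the transcription factor whose mRNA ERN1 splices, was at 83.5, 116, 109 and 114 with a log2 ratio of 0.45, and a gene FPKM does not separate its spliced form. ERO1L (ERO1A), the oxidase of disulfide isomerases, was at 0.28, and PPP1R15A (GADD34) at 0.20, under the threshold.

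**Figure D2:**
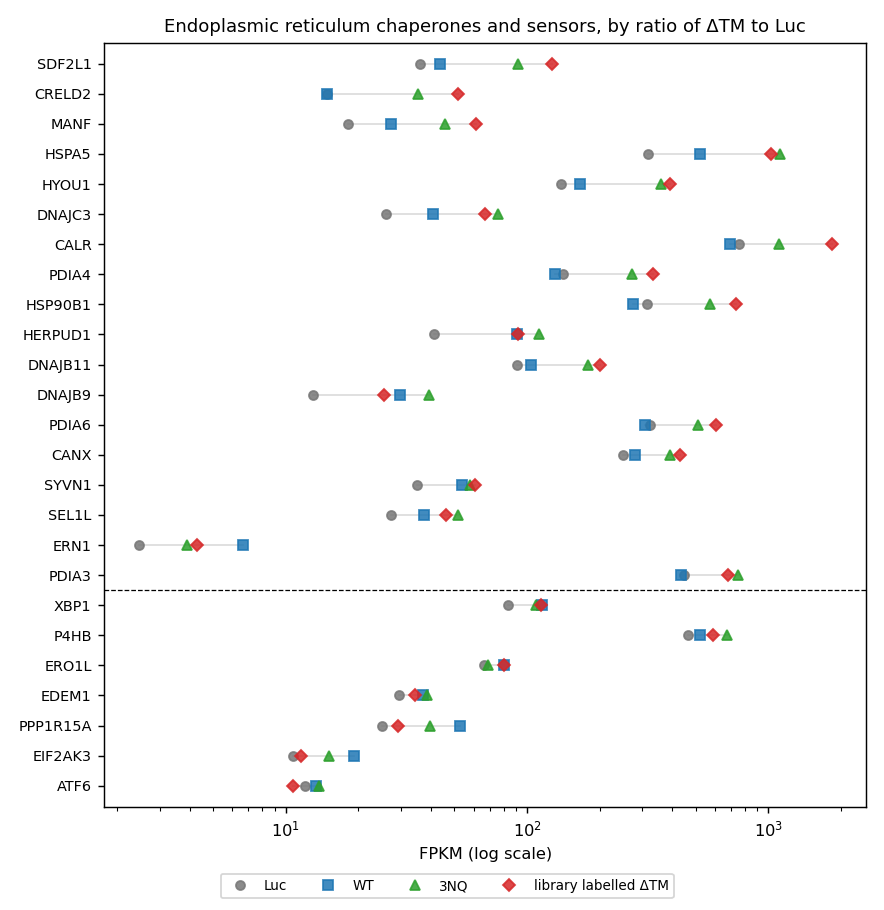
FPKM (x axis, log scale) of the 25 endoplasmic reticulum chaperones and sensors in each of the 4 libraries, 1 symbol a library. Genes are ordered by the ratio of the library labelled ΔTM to Luc, and the 18 above the dashed line passed 1.5-fold. Over all 25, the library labelled ΔTM was highest in 12, 3NQ in 9 and WT in 4. Luc was lowest in 18 of the 25, WT in 6 and the library labelled ΔTM in 1. Of the 18, which were kept for standing above Luc, the library labelled ΔTM was highest in 11, 3NQ in 6 and WT in 1. Luc was lowest in 12 of these and WT in 6.

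The same 25 genes had their own values in the other comparisons, which share the Luc library. In WT, 8 of 25 were higher than Luc by 1.5-fold, 0 were lower, and the median was 0.27, where 3.39% of all genes were higher and 3.34% lower. In 3NQ, 17 of 25 were higher, 0 were lower, and the median was 0.74, where 1.75% of all genes were higher and 2.60% lower. With WT in place of Luc as the control, 13 of the 25 were higher in the library labelled ΔTM and the median was 0.62. With the mean of Luc, WT and 3NQ as the control, 10 were higher and the median was 0.32.

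Ranked among the 9181 genes that reached an FPKM of 5 in Luc or the library labelled ΔTM and above 0 in both, SDF2L1 was 16th, CRELD2 17th, MANF 18th and HSPA5 19th from the top. None of the list was in the top 15, 5 were in the top 25, 11 in the top 50 and 16 in the top 100.

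The promoter elements were looked for in every RefSeq promoter, from 250 bases before to 50 after the start. ERSE was found in 0.0769% and ERSE-II in 0.0541% of all 35116 promoters, and no promoter held both. A promoter was at hand for 17 of the 18 called chaperone genes, and 9 of the 17 (52.9%) held an element. Those 17 were kept for their ratio, and over the whole list 10 of 24 genes with a promoter (41.7%) held one. The elements were introduced above as those of chaperone genes, so their presence there is no separate result. Counted by gene in the same way, an element was in 30 of the 9165 genes passing the filter that had a promoter (0.327%). Over all 27305 genes with a promoter, expressed or not, it was in 44 (0.161%). ERSE was in HSPA5, HSP90B1, CALR, CRELD2, CANX and PDIA6, and ERSE-II in SDF2L1, HERPUD1 and HYOU1. MANF, DNAJB9, DNAJB11, DNAJC3, PDIA4, SEL1L, SYVN1 and ERN1 held no match in this window, and of the 7 genes of the list under the threshold, XBP1 held ERSE.

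The elements can also be taken first and the ratios read from them. Of the genes passing the filter, 30 had a promoter with an element, and 12 of these (40.0%) were higher in the library labelled ΔTM while 0 were lower, where 1.52% and 1.58% of all genes were. Their median log2 ratio was 0.29, with 25 of 30 above Luc. In the other comparisons with Luc, 3 of the 30 were higher in WT with a median of 0.00085, and 11 in 3NQ with a median of 0.34. Of the 12 higher in the library labelled ΔTM, 9 were the called chaperone genes above, so this count is no separate result. Without the 10 genes of the chaperone list, 3 of 20 were higher and the median was 0.15. These 3 were ERO1LB, a second oxidase of disulfide isomerases, at 1.91 in Luc, 2.69 in WT and 6.90 in 3NQ, against 5.92 in the library labelled ΔTM, FICD and RAD9A. FICD, which attaches AMP to HSPA5 and removes it, was at 3.47, 5.49, 8.65 and 6.66, a log2 ratio of 0.78. RAD9A, a checkpoint clamp subunit, was at 6.91, 8.89, 10.5 and 10.9, a log2 ratio of 0.59. FICD and RAD9A were named for their elements after values had been seen. A match is a stretch of letters, and binding was not measured.

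**Figure D3:**
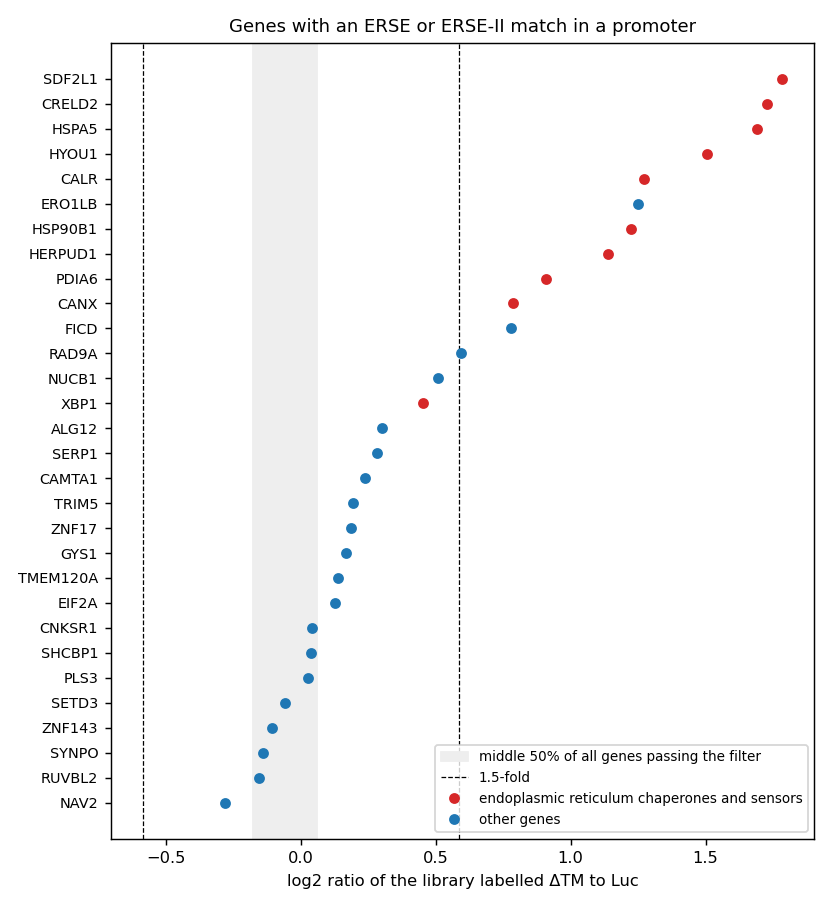
Log2 ratio (x axis) of the library labelled ΔTM to Luc for the 30 genes with ERSE or ERSE-II in a promoter, 1 row a gene. Red points are in the list of endoplasmic reticulum chaperones and sensors, blue points are not, the grey band is the middle 50% of all genes passing the filter and dashed lines mark 1.5-fold. The 12 points right of the upper line hold 9 red and 3 blue ones, and no point lies left of the lower line.

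Further steps of the secretory pathway, in lists added after values had been seen, had lower medians. Of 26 genes of the translocon, signal peptidase and signal recognition particle, 3 were higher and 0 lower, with a median of 0.23 and 22 above Luc. These were SEC61G, a translocon subunit, at 0.84, SEC11C, a catalytic subunit of signal peptidase, at 1.02, and SPCS2, another subunit of signal peptidase, at 0.59. Of 22 genes of degradation from the endoplasmic reticulum outside the first list, 2 were higher (DERL2 at 0.88 and SELK at 0.69), with a median of 0.062. Of 29 other foldases, 5 were higher, with a median of 0.14. PPIB (cyclophilin B), a prolyl isomerase, was at 480 in Luc, 518 in WT and 809 in 3NQ, against 838 in the library labelled ΔTM, a log2 ratio of 0.80. NUCB2 was at 22.8, 44.9, 72.1 and 59.0, a log2 ratio of 1.33. SIL1, an exchange factor of HSPA5, was at 0.84, ERP44, which retains proteins in the early secretory pathway, at 0.90, and ERO1LB at 1.25. With the 25 genes of the first list, 28 of the 176 higher genes and 0 of the 183 lower genes belonged to these 4 lists, 18 of the 28 to the first. Of all genes, 1.52% were higher and 1.58% lower, and lists of this size would hold few or no lower genes at that share.

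N-glycan assembly had 2 of 33 genes higher and 1 lower, with a median of 0.051, where 1.52% of all genes were higher and 1.58% lower. At those shares, lists of the sizes given here would hold few or no calls. ALG5, which makes the glucose donor of the pathway, was at 0.67, RPN1, a subunit of the oligosaccharyltransferase, at 0.66, and MGAT5, a branching enzyme of the Golgi, at −0.62. MGAT5 was at 43.7 in Luc, 38.6 in WT and 44.9 in 3NQ, against 28.0 in the library labelled ΔTM. Vesicle coats and Golgi transport had 0 of 31 genes past the threshold in either direction. Cytosolic heat shock proteins had 0 of 18, with a median of −0.00071 and ratios from −0.19 to 0.31. HSPA8, the constitutive cytosolic Hsp70, was at 2478 in Luc and 2593 in the library labelled ΔTM, and HSP90AB1 at 693 and 701.

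ATF4 target genes, which the PERK branch and amino acid shortage turn on, had 1 of 26 higher and 1 lower, with a median of −0.0031. Of all genes, 1.52% were higher and 1.58% lower. DDIT3 (CHOP) was at 10.04 in Luc, 21.1 in WT and 20.1 in 3NQ, against 19.9 in the library labelled ΔTM, a log2 ratio of 0.92. DDIT4 was at 17.6, 19.8, 10.8 and 9.92, a log2 ratio of −0.77. The DDIT3 value thus set Luc apart from the other 3, while ATF4 mRNA itself had a log2 ratio of −0.28, TRIB3 one of −0.0079 and ASNS one of 0.038.

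**Figure D4:**
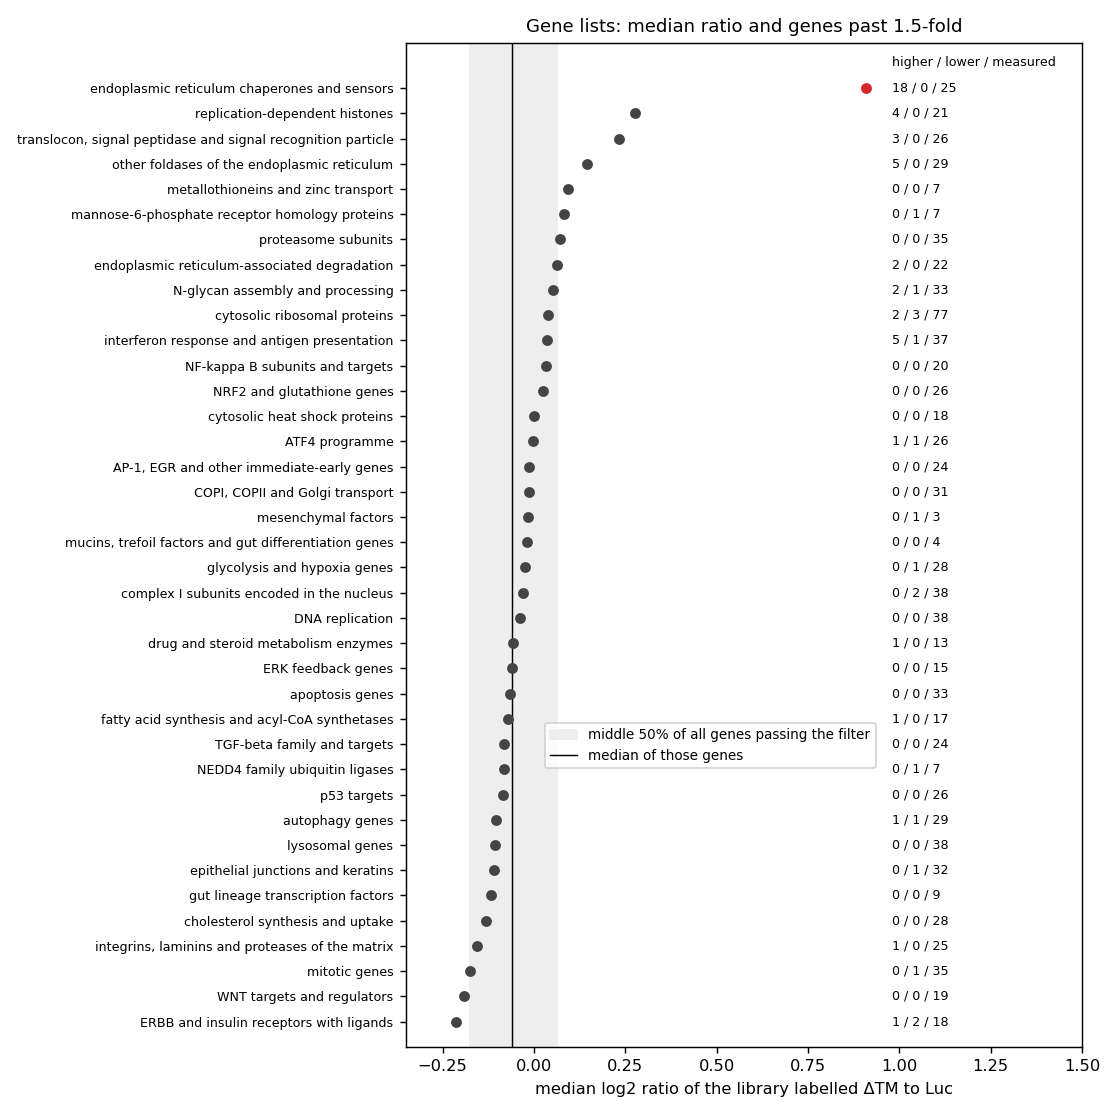
Median log2 ratio (x axis) of the library labelled ΔTM to Luc for each of 38 gene lists with at least 3 measured genes, ordered by the median. The grey band is the middle 50% of all genes passing the filter, the line their median of −0.061, and the 3 numbers give the genes higher past 1.5-fold, lower past 1.5-fold and measured. The chaperone list, in red, stands at 0.91 and the next list, replication-dependent histones, at 0.28. The histone median rests in part on genes that passed the filter through the library labelled ΔTM alone.

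Counts for the proliferation lists were read against the 1.52% of all genes that were higher and the 1.58% that were lower. Of 38 DNA replication genes, 0 passed the threshold, with a median of −0.037. Of 35 mitotic genes, 1 was lower and 0 higher, the median was −0.17, and 32 of 35 were below Luc where 7319 of 11580 genes were. The lower gene was PRC1, a bundling protein of the spindle midzone, at 29.4 in Luc, 18.8 in WT and 23.9 in 3NQ, against 19.0 in the library labelled ΔTM. Of 21 replication-dependent histone genes, 4 were higher with a list median of 0.28. All 4, HIST1H1E, HIST1H3H, HIST1H4B and HIST1H4D, passed the filter through the library labelled ΔTM alone, at 1.16 to 1.76 against 0.31 to 0.57 in Luc. HIST1H2BH, HIST1H3D, HIST2H2BF and HIST4H4 also passed through that library alone, whereas HIST1H2AE and HIST1H2AM passed through Luc alone. Genes passing through a single library had to be higher in it to be counted, so the list median rests in part on the filter. Histone paralogs can also share reads. p53 targets had 0 of 26 genes past the threshold and apoptosis genes 0 of 33, with medians of −0.084 and −0.065.

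Among growth factor genes, TGFA, a ligand of the EGF receptor, was at 1071 in Luc, 91.9 in WT and 108 in 3NQ, against 126 in the library labelled ΔTM, a log2 ratio of −3.08. The Luc library alone was high. EGF was at 0.35 in Luc and 1.38 in the library labelled ΔTM, and NRG4 at 1.26 and 0.49, each with only 1 library of the pair above the filter. The list of ERBB and insulin receptors with their ligands had a median of −0.21 over 18 genes, the lowest of the 38 lists. The median of all genes was −0.061. Of the 18, 12 were below Luc and 6 above. EGFR was at −0.12, ERBB2 at −0.45 and ERBB3 at −0.36, while AREG was at 0.50 and IGFBP3 at 0.42. Immediate-early genes had 0 of 24 past the threshold, ERK feedback genes 0 of 15, TGF-beta genes 0 of 24, WNT targets 0 of 19 and NF-kappa B genes 0 of 20. Of all genes, 1.52% were higher and 1.58% lower, and at those shares lists of these sizes would hold few or no calls. Of 25 matrix genes, 1 was higher, LAMB3 (a laminin-332 chain), at 39.3 in Luc, 87.7 in WT and 83.6 in 3NQ, against 60.4 in the library labelled ΔTM.

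Interferon response genes held 5 higher and 1 lower of 37, with a median of 0.035, where 1.52% of all genes were higher and 1.58% lower. IFI27 was at 3.63 in Luc, 3.29 in WT and 7.21 in 3NQ, against 9.51 in the library labelled ΔTM, a log2 ratio of 1.18. IFITM1 was at 1.79, 2.24, 3.79 and 5.17, a log2 ratio of 1.14. BST2 (tetherin) was at 1.77, 1.28, 1.27 and 3.39, a log2 ratio of 0.67. All 3 were highest in the library labelled ΔTM, at an FPKM under 10. IFI44L at 0.61 and XAF1 at 0.61 were the other higher genes, and IFITM2, at −0.60, the lower one. XAF1, at 0.54 in Luc and 1.35 in the library labelled ΔTM, passed the filter through the latter alone and so had to be higher to be counted. IFITM genes are paralogs that can share reads, so the values of IFITM1 and IFITM2 are uncertain. IFITM3, of the same family, was at 110 in Luc and 143 in the library labelled ΔTM, a log2 ratio of 0.38.

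Counts for the metabolic and housekeeping lists were read against the same 1.52% and 1.58% of all genes. Cholesterol synthesis had 0 of 28 past the threshold, 24 of 28 below Luc and a median of −0.13. Over all genes, 7319 of 11580 were below Luc and the median was −0.061. FADS2, a fatty acid desaturase, was higher at 0.68 (1 of 17). ALDOC, an aldolase, was lower at −0.72 (1 of 28 glycolysis genes). NDUFA3 and NDUFC2 were lower at −0.68 and −0.63 (2 of 38 complex I subunits). Of 77 ribosomal protein genes, RPS19 and RPS21 were higher, and RPL17, RPL27A and RPS25 lower, with a list median of 0.040. RPS19 was at 464 in Luc, 430 in WT and 385 in 3NQ, against 1055 in the library labelled ΔTM, a log2 ratio of 1.18, and RPS21 was at 340, 274, 285 and 700. Both stood above the other 3 libraries by over 1.5-fold, and ribosomal proteins have many processed pseudogenes that share reads. Autophagy genes had WIPI1 higher at 0.74 and PIK3C3 lower at −0.61 of 29, with WIPI1 at 5.26 in Luc, 16.6 in WT and 10.3 in 3NQ, against 9.43 in the library labelled ΔTM. Lysosomal genes (0 of 38), the proteasome (0 of 35), NRF2 targets (0 of 26) and metallothioneins with zinc transporters (0 of 7) had none past the threshold. The other lists had at most 1 call each. These were ABCG2, a drug efflux pump, at 0.78, NEDD4L, a ubiquitin ligase, at −0.75, KRT15 at −0.64, FN1 (fibronectin) at −0.66 and KIAA1324. KIAA1324 was the 1 lower gene of 7 in the list of its relatives. It counts among the 183 lower genes, although its listed 0 can be a failed estimate.

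The 15 highest ratios belonged to single genes of unlike function. NIPAL2, which encodes a NIPA-like transmembrane protein, was at 10.4 in Luc, 13.6 in WT and 15.3 in 3NQ, against 2403 in the library labelled ΔTM. NT5DC4 was at 0.21, 0.12, 0.22 and 236. FBXL16, an F-box protein, was at 3.49, 4.24, 3.08 and 264. In these 3 genes the library labelled ΔTM stood alone. SF3B1, the largest subunit of the U2 snRNP splicing factor SF3b, was at 157 in Luc, 153 in WT and 1725 in 3NQ, against 1711 in the library labelled ΔTM. TUBA1A, an alpha-tubulin, was at 14.7, 40.4, 90.6 and 103, and MCM3AP, a factor of mRNA export, at 33.9, 432, 267 and 260. SF3B1 thus set 2 libraries against 2, while MCM3AP set Luc against the other 3. The library labelled ΔTM was above the other 3 in 13 of the 15, and Luc below the other 3 in 8. Picking genes by the ratio of these libraries favours both counts, so they are no separate result. The remaining genes were TMEM105, RNF207, UIMC1, MTO1, ROM1, EPB41L1, SLC25A13, FGD3 and RP11-680G10.1, with log2 ratios from 1.97 to 5.52.

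Among the 15 lowest ratios, Luc was the highest library more often than the library labelled ΔTM was the lowest. IMMP1L, a subunit of the inner membrane peptidase of mitochondria, was at 9820 in Luc, 5656 in WT and 22515 in 3NQ, against 18.2 in the library labelled ΔTM. Here the library labelled ΔTM alone was low. FOXO1, a forkhead transcription factor, was at 359, 1.41, 1.34 and 1.28. RAPGEF6, an exchange factor for Rap GTPases, was at 1081, 7.18, 6.51 and 5.99, and PTPN12, a tyrosine phosphatase, at 734, 29.2, 30.3 and 28.1. In these 3 the other libraries lay close to each other and Luc alone was high, as it was for EFTUD1, AC009403.2 and TGFA. TPTE2P5 was at 181 in Luc, 202 in WT and 0 in 3NQ, against 0.21 in the library labelled ΔTM. Luc was above the other 3 in 11 of the 15, and the library labelled ΔTM below them in 8, counts that the pick by ratio favours as well. RP11-193F5.1 was at 198 in Luc, was listed at 0 in WT and had a vanishing value in the remaining libraries, so no fold is given. The remaining genes were HDAC11, HIVEP2, LRBA, AC079767.2, CKB and NME2, with log2 ratios from −3.45 to −1.63.

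**Figure D5:**
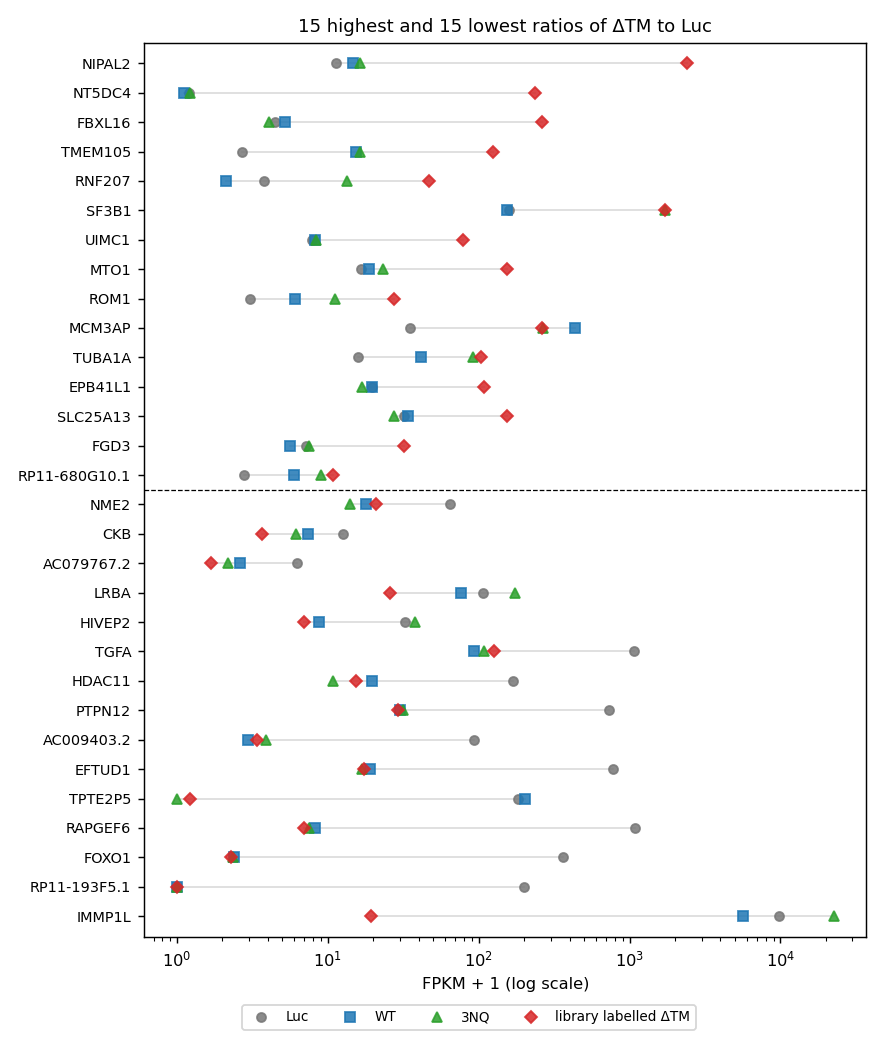
FPKM + 1 (x axis, log scale) of the 15 genes with the highest and the 15 with the lowest ratio of the library labelled ΔTM to Luc, in each of the 4 libraries, 1 symbol a library. The dashed line parts the groups. In the upper group the library labelled ΔTM is the highest of the 4 in 13 genes, and in the lower group Luc is the highest of the 4 in 11. The genes were picked by this ratio, which favours both counts.

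A small non-coding RNA gene lay on the same strand inside 4 of the 15 highest and 5 of the 15 lowest genes, inside 13.8% of all genes passing the filter and inside 2 of the 18 called chaperone genes. Its part in these values was not tested. Of genes listed at 0 in Luc with an FPKM of at least 5 in the library labelled ΔTM, SNORA71A, a small nucleolar RNA gene, was at 1516, UBE2DNL at 59.0 and a gene known only by a clone name at 19.9, each at 0 in the other 3 libraries. In the other direction, AC007382.1 was at 368 in Luc and listed at 0 in the other 3, RP3-323P13.2 was at 9.47 in Luc and C1orf134 at 5.68. At the edge of the filter, SLC28A1 at 1.00 in Luc and RSPH1 at 1.00 in the library labelled ΔTM were just inside, and PIGZ, at 0.998 in Luc, was just outside.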

How the data were processed

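Poly(A) RNA of 4 MKN28 lines was made into libraries with a TruSeq kit and sequenced on a HiSeq2500. The authors filtered the reads, aligned them to GRCh37 by TopHat and quantified Ensembl genes by Cufflinks (2.1.1 in the submitters' processing notes), with non-coding regions masked and with the corrections for fragment bias and for reads that map to several places. The deposited values are FPKM, scaled by the authors for library size and gene length, with 1 value per gene and library and no counts, intervals or p-values, so that absolute depth is unknown.

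Log2 ratios were computed from FPKM + 1 in Python 3.11.15 (pandas 2.3.3, numpy 2.4.6), for genes that reached an FPKM of 1 in Luc or the library labelled ΔTM, and a gene was called at 1.5-fold. The steps were checked on simulated data. Of 166 entries that repeat a symbol, that with the larger mean over libraries stood for lists and named genes. A list was described by its counts and its median beside those of all genes. The genes and lists were chosen with earlier results of these data known, and 3 of the 42 lists were added in the present work after values had been seen. No gene of the mitochondrial genome was in the table, so that list gave no value.

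Genes were named by rule: KIAA1324, the 15 highest and 15 lowest ratios among genes reaching an FPKM of 5 in either library and above 0 in both, up to 5 genes each way listed at 0 in one library, the called genes of each list, and the genes at the edge of the filter. Other genes were chosen after their values had been seen. Promoters are RefSeq's on GRCh38.p14, matched by Ensembl ID, symbol or synonym. A promoter was matched for 79.1% of the genes passing the filter and 69.3% of those called higher. The match was thus uneven, so shares of elements cover only genes with a promoter, and none is given for all genes called higher. Small RNA genes and the GC content and length of transcripts came from the GENCODE annotation on GRCh37, the build of the table's coordinates. Relative depth was read from the steps between low FPKM values. Figures were drawn with matplotlib 3.10.9.

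Results were recomputed at 2-fold, with a pseudocount of 0.1 or 5, without the filter or at an FPKM of 5, after rescaling to the upper quartile or the median of ratios, against the mean of Luc, WT and 3NQ, with a trend on GC content and length taken out, and without genes at 0. Leaving out genes that hold a small RNA gene, and WT as control, were added after seeing the data.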

Additional observations from a re-analysis of the deposited data

How the results depend on the processing

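No paired analysis was possible because each group is 1 library. The counts of higher and lower genes moved with the threshold and low values, to 71 and 51 at 2-fold, 311 and 365 with a pseudocount of 0.1, 88 and 56 with a pseudocount of 5, 116 and 96 for an FPKM of at least 5, and 341 and 499 with WT as control. The chaperone list had 11 higher genes at 2-fold and 10 with the mean of Luc, WT and 3NQ as control. Its median was 0.78 with a pseudocount of 5, 0.79 without genes that hold a small RNA gene, 0.32 with the mean of the 3 libraries as control and 0.62 with WT as control. Under the other alternatives run, the list kept 16 to 18 higher genes and a median within 0.1 of the 0.91 given above.

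With the mean of the 3 libraries as control, the ratio changed sign for DNAJB9 (−0.096), ERN1 (−0.021), IFITM2 (0.047), LAMB3 (−0.21) and WIPI1 (−0.17). With WT as control it changed sign for AC009403.2 (0.20), DDIT3 (−0.079), DNAJB9 (−0.22), ERN1 (−0.54), IFITM2 (0.78), LAMB3 (−0.53), MCM3AP (−0.73), NME2 (0.22), PRC1 (0.018), TGFA (0.45) and WIPI1 (−0.76). Signs and calls were followed for 92 of the named genes past 1.5-fold, and not for named genes under the threshold. Among the 92, no alternative that keeps Luc as the control turned the direction. Of these 92 genes, 43 lay under 2-fold, 25 under 1.5-fold with a pseudocount of 5, and 8 under 1.5-fold after either rescaling. The cause of these changes was not tested. With 1 library a side and no counts, the error of a single FPKM is unknown, and FPKM under about 5 give the largest share of calls.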

Other observations

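Some values in the table were above 0 but under 1e-06 FPKM. There were 211 in the library labelled ΔTM, against 189 in Luc, 180 in WT and 195 in 3NQ. Of the genes passing the filter, 3 had such a value in Luc or the library labelled ΔTM, 1 of them called higher and 2 lower. RP11-193F5.1 was one of these.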
